A study of Mus musculus with 6 samples.

Results

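The matrix metalloproteinase (MMP) genes described here are the stromelysins Mmp3 and Mmp10, the collagenases Mmp8 and Mmp13, the elastase Mmp12, the matrilysin Mmp7, the enamel protease Mmp20 and the less studied Mmp27. They lie in a cluster on mouse chromosome 9, which also holds Mmp1a and Mmp1b, genes outside the 8. The 8 genes were selected from this cluster, out of 19937 genes with a probe set of their own. They were proposed with earlier results of these data known. Where a gene had several probe sets, the one with the highest mean over the 6 arrays was to be chosen, but each of the 8 genes had 1, so no measured value chose among probe sets. Expression was profiled in 6 whole tumors. They came from the murine breast cancer line 4T1, left to grow for 7 days in a mammary gland of Balb/C mice from 750000 injected cells. For the next 14 days, 3 mice received 40 mg/kg of TKI258 by mouth once a day and 3 received water. TKI258 (dovitinib) inhibits several receptor tyrosine kinases, among them receptors for FGF, VEGF and PDGF. RNA of each tumor went to 1 Affymetrix array, and the values are log2 signals made by the authors with RMA, in which 1 unit is a doubling. Tumor cells, stroma, vessels, immune cells and adjacent tissue all contribute, so fewer cells of a type and less RNA per cell cannot be told apart.

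MMPs are zinc-dependent proteases that cut proteins of the extracellular matrix. Most are secreted as inactive precursors, are switched on by cleavage (by plasmin, by mast cell and neutrophil proteases or by one another) and are blocked by the TIMP inhibitors. In tumors they are made by carcinoma cells and, often more, by fibroblasts, neutrophils and macrophages. Several genes of the cluster are known as targets of the transcription factor AP-1 (dimers of Fos and Jun proteins), which binds a site close to the TATA box.

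Promoter sequences from RefSeq (build GRCm38.p6) were matched for 8 of the 8 genes and are shown because both motifs recur in the cluster. Each line runs from base -80 to base 20 around an annotated transcription start, on the plus strand and 5′ to 3′. Capitals mark an AP-1 site (TGAGTCA or, on the other strand, TGACTCA) and the TATA motif (TATAAA). The TATA motif begins at base -7 in Mmp3, -29 in Mmp10, -16 in Mmp13 and -26 in Mmp7. In Mmp12 it begins at base 5, downstream of the annotated start, so it is not a TATA box of that start. The motifs of Mmp3 and Mmp13 lie closer to their annotated starts than those of Mmp10 and Mmp7. Whether any of them acts as a TATA box of its annotated start was not tested. Mmp8 is given for comparison, since neither motif was found in its window. The positions are chr9:7445742-7445841 for Mmp3, chr9:7502262-7502361 for Mmp10, chr9:7272434-7272533 for Mmp13, chr9:7347294-7347393 for Mmp12 (the second of 2 annotated starts), chr9:7692010-7692109 for Mmp7 (the first of 2) and chr9:7558349-7558448 for Mmp8.
Mmp3: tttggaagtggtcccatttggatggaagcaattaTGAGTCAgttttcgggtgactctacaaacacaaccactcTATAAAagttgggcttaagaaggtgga
Mmp10: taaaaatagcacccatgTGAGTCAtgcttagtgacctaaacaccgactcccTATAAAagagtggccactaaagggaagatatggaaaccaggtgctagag
Mmp13: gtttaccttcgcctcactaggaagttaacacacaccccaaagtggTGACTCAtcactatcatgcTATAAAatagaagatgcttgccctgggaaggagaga
Mmp12: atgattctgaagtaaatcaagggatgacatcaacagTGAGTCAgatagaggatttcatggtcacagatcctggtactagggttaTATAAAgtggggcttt
Mmp7: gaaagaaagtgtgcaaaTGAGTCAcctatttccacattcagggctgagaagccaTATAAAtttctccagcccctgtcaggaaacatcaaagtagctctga
Mmp8: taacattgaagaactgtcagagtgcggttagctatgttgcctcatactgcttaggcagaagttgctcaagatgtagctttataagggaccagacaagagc

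In windows of 300 bases (250 before a start and 50 after), 5 of the 8 genes held an AP-1 site: Mmp3, Mmp7, Mmp10, Mmp12 and Mmp13. Of 27025 mouse genes with such windows, 5.95% held one. The TATA motif, searched on the strand of the gene, was found in 6 of the 8 genes and in 9.77% of all genes. The same 5 genes held both motifs in 1 window, as did 0.736% of all genes. A gene with several starts was counted if any of its windows matched. The windows of the first Mmp12 start and the second Mmp7 start held neither motif. Which start is used in these tumors is not known. The core of the ETS site known as PEA3 (AGGAAG, both strands) was found in 5 of the 8 genes against 38.4% of all genes, and the core bound by RUNX factors (ACCACA, both strands) in 3 of the 8 against 18.9%. No matches of these motifs overlapped one another in the windows of the cluster. A match is a run of letters and was not tested as a binding site.

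**Figure D1:**
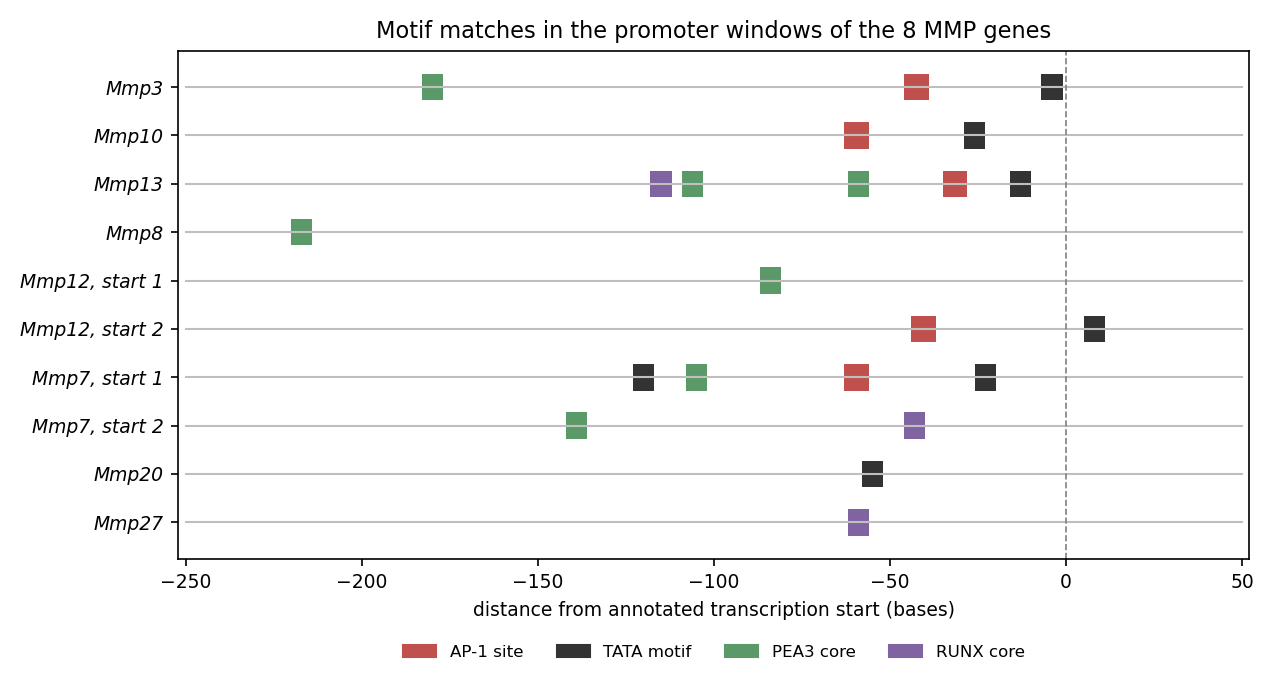
Motif matches in each promoter window of the 8 MMP genes, by distance in bases from the annotated transcription start (dashed line); Mmp7 and Mmp12 have 2 annotated starts. Boxes are matches on either strand, or on the gene's strand for the TATA motif. Mmp3, Mmp10, Mmp13, Mmp12 and Mmp7 hold an AP-1 site upstream of a start, at -46, -63, -35, -44 and -63. The TATA motif of Mmp12 lies downstream of its start, at 5.

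As a group the 8 genes divided into 3 with lower signal in TKI258 tumors (Mmp3, Mmp10 and Mmp13) and 5 with differences within the spread between tumors. For Mmp10, unlike Mmp3 and Mmp13, the groups overlapped. The median difference (TKI258 minus water) was -0.21 over the 8 genes and 0.023 over all genes. The sign was negative in 6 of the 8, and in 43.4% of all genes. None of the 8 passed the test across the array: 0 of 34760 probe sets (0%) reached a limma adjusted p under 0.05, while 2803 had an unadjusted limma p under 0.05. By the unadjusted p, 3 of the 8 were lower, against a background of 3.35% of genes, and 0 were higher, against 3.79%. All TKI258 tumors lay below all water tumors for 2 of the 8, as for 6.49% of genes. All lay above for 0 of the 8, as for 8.66% of genes.

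**Figure D2:**
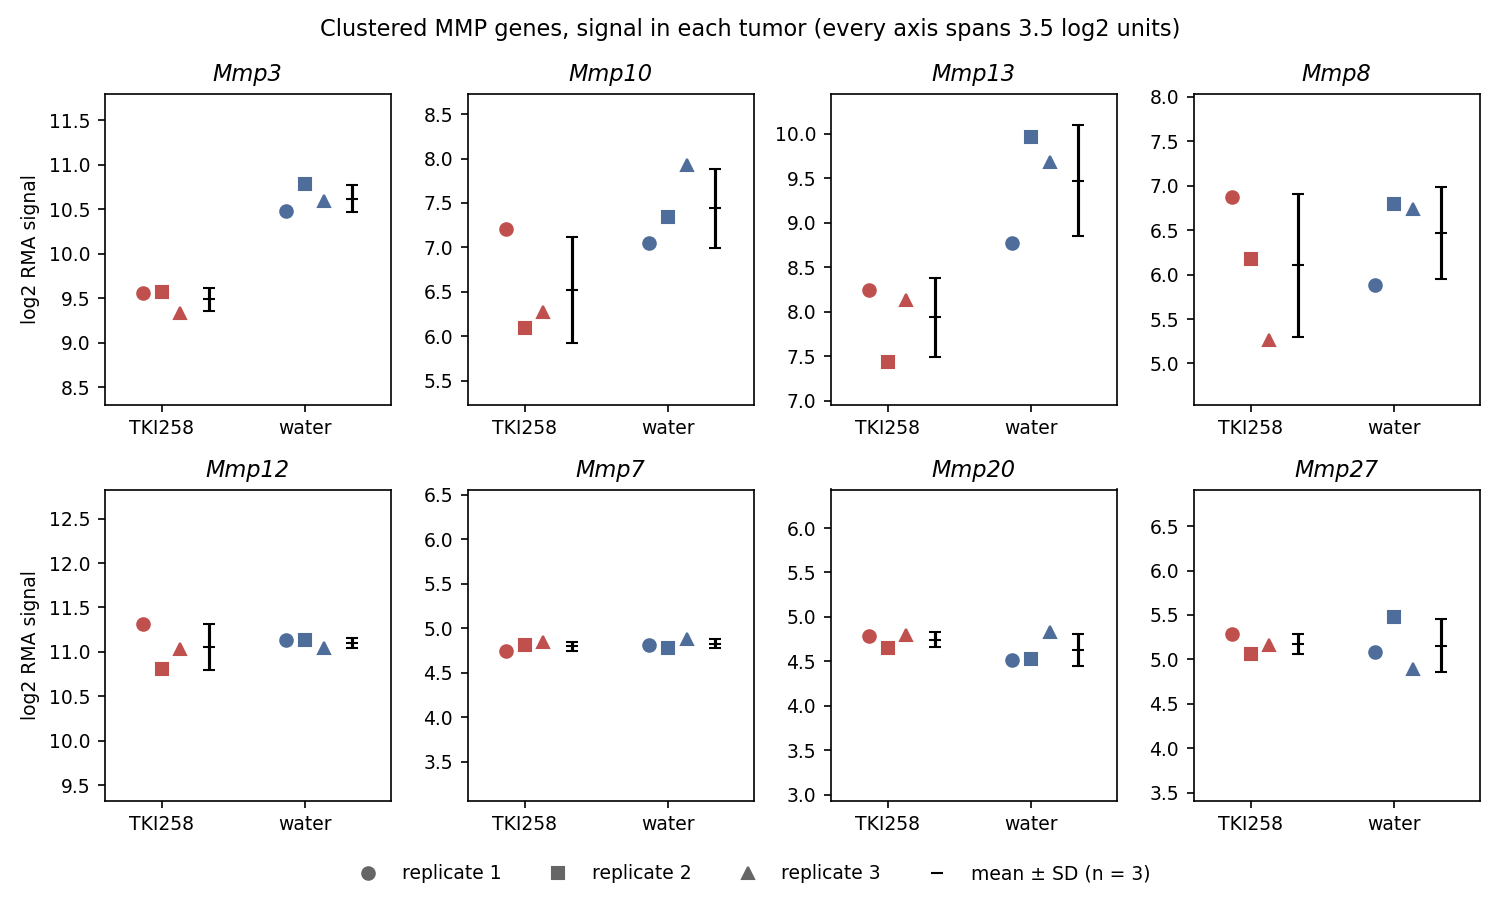
Log2 RMA signal of the 8 MMP genes in each of 3 TKI258 tumors (left) and 3 water tumors (right); black marks are means ± SD, and every axis spans the same number of log2 units. The groups are apart for Mmp3 (9.34 to 9.57 in TKI258 and 10.48 to 10.78 in water tumors) and Mmp13 (7.43 to 8.25 in TKI258 and 8.77 to 9.97 in water tumors) and overlap for the other genes.

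Mmp3 encodes stromelysin 1, which cuts proteoglycans, laminin and fibronectin and activates procollagenases. Its signal was 9.56, 9.57 and 9.34 in TKI258 replicates 1, 2 and 3, against 10.48, 10.78 and 10.60 in water replicates 1, 2 and 3. The groups did not overlap, and the gap between them was wider than the range within either group. Mean signal was 9.49 ± 0.13 in TKI258 tumors and 10.62 ± 0.15 in water tumors (SD, n = 3 each), a 2.19-fold lower level. The log2 difference was -1.13 ± 0.12 (SE, 95% interval -1.41 to -0.85), with a limma adjusted p of 0.242. By limma p it ranked 3 among the 19937 genes.

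Mmp10 encodes stromelysin 2, a close relative of stromelysin 1 that is prominent in migrating keratinocytes. Its signal was 7.20, 6.10 and 6.27 in TKI258 replicates 1 to 3, against 7.05, 7.34 and 7.92 in water replicates 1 to 3. TKI258 replicate 1 lay above water replicate 1, so the groups overlapped. Mean signal was 6.52 ± 0.59 in TKI258 tumors and 7.44 ± 0.45 in water tumors (SD, n = 3 each), and the difference was -0.91 ± 0.34 (SE, 95% interval -1.73 to -0.10, limma adjusted p = 0.604). Leaving out single tumors moved the difference between -1.25 (without TKI258 replicate 1) and -0.67 (without water replicate 3).

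Mmp13 encodes collagenase 3, the main collagenase of fibrillar collagen in rodents and a product of chondrocytes, osteoblasts and tumor stroma. It had the largest difference of the 8 genes. Signal was 8.25, 7.43 and 8.13 in TKI258 replicates 1 to 3, against 8.77, 9.97 and 9.68 in water replicates 1 to 3. No TKI258 tumor reached the water tumors, but water replicate 1 was the lowest water tumor and lay closer to TKI258 replicates 1 and 3 than to either other water tumor. Means were 7.94 ± 0.44 in TKI258 tumors and 9.47 ± 0.63 in water tumors (SD, n = 3 each), a 2.90-fold lower level. The difference of -1.54 ± 0.35 (SE, 95% interval -2.37 to -0.70) had a limma adjusted p of 0.533.

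Mmp8 encodes the collagenase stored in neutrophil granules. Its signal was 6.87, 6.18 and 5.26 in TKI258 replicates 1 to 3, against 5.88, 6.80 and 6.73 in water replicates 1 to 3. The highest and the lowest of the 6 tumors were both TKI258 tumors, and the spread within groups was larger than the difference between them. The difference was -0.37 ± 0.43 (SE, 95% interval -1.40 to 0.67, limma adjusted p = 0.812), and without TKI258 replicate 3 it was 0.054.

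Mmp12 encodes the elastase of macrophages. It was level across tumors, with 11.32, 10.81 and 11.03 in TKI258 replicates 1 to 3, against 11.13, 11.14 and 11.04 in water replicates 1 to 3. The difference was -0.051 ± 0.14 (SE, limma adjusted p = 0.926). Its 95% interval of -0.38 to 0.28 does not reach the differences measured for Mmp3 or Mmp13.

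Mmp7 (matrilysin, made by glandular epithelium), Mmp20 (enamelysin, made by ameloblasts of the tooth) and Mmp27 had low signals, with both group means of each below every array median (6.38 to 6.44). The table gives no call of whether a probe set is above background. Mmp7 was 4.74, 4.81 and 4.84 in TKI258 replicates 1 to 3, against 4.81, 4.78 and 4.88 in water replicates 1 to 3. For Mmp20 the values were 4.78, 4.65 and 4.80 in TKI258 tumors, against 4.51, 4.53 and 4.83 in water tumors. Those of Mmp27 were 5.29, 5.06 and 5.16 in TKI258 tumors, against 5.08, 5.48 and 4.90 in water tumors. The groups overlapped for all 3 genes, with differences of -0.028 ± 0.081, 0.12 ± 0.12 and 0.018 ± 0.16 (SE, limma adjusted p = 0.930, 0.778 and 0.979). The enamel organ list (Amelx, Enam, Ambn, Klk4 and Amtn) had means of 4.36 to 4.43 in TKI258 tumors and 4.19 to 4.25 in water tumors, also below every array median.

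Along the chromosome, the genes with lower signal were not one unbroken stretch. The cluster spans 427 kb and holds 10 protein-coding genes in the order Mmp13, Mmp12, Mmp1b, Mmp3, Mmp1a, Mmp10, Mmp8, Mmp27, Mmp20 and Mmp7 (RefSeq, GRCm38.p6). Mmp12, between Mmp13 and Mmp1b, differed by -0.051, and the last 4 genes, from Mmp8 to Mmp7, by -0.37 to 0.12. Within each tumor, Mmp13 signal minus Mmp12 signal was -3.07, -3.38 and -2.90 in TKI258 replicates 1 to 3, against -2.36, -1.17 and -1.36 in water replicates 1 to 3. Mmp3 minus Mmp12 was -1.76, -1.24 and -1.70 in TKI258 tumors, against -0.65, -0.35 and -0.44 in water tumors. In both pairs the TKI258 tumors lay below the water tumors. The groups overlapped for the other 3 pairs computed, Mmp10 minus Mmp8 (mean 0.42 in TKI258 and 0.97 in water tumors), Mmp13 minus Mmp3 (-1.55 in TKI258 and -1.15 in water tumors) and Mmp10 minus Mmp3 (-2.96 in TKI258 and -3.18 in water tumors). The pairs were chosen with results known and carry no test.

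Mmp1a and Mmp1b, the rodent relatives of human collagenase 1, lie in the same cluster outside the 8 genes. Mmp1a signal was 4.14, 4.48 and 3.93 in TKI258 replicates 1 to 3, against 5.89, 4.76 and 5.75 in water replicates 1 to 3 (difference -1.28 ± 0.31, limma adjusted p = 0.546). Mmp1b signal was 3.63, 3.89 and 3.75 in TKI258 tumors, against 4.61, 4.37 and 5.12 in water tumors (difference -0.94 ± 0.19, limma adjusted p = 0.484). The groups did not overlap for either gene, while all values lay below the array medians. Probe sequences were not used here, so signal shared between these 2 similar genes cannot be told apart.

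The 8 protein-coding neighbours, the nearest 4 on each side with a probe set of their own, did not share the lower signal of Mmp3 and Mmp13. Mean signal over all tumors was 4.36 for Ddi1 and 5.05 for Pdgfd, below every array median. At such low signal a decrease could be missed. Before Mmp13, Dcun1d5 (a cullin neddylation factor) differed by -0.072 ± 0.087, Dync2h1 (a ciliary dynein chain) by 0.051 ± 0.12, Ddi1 by 0.054 ± 0.085 and Pdgfd (a PDGF ligand) by 0.18 ± 0.10. After Mmp7, Tmem123 differed by -0.023 ± 0.13, the apoptosis inhibitors Birc2 and Birc3 by -0.0086 ± 0.16 and 0.10 ± 0.25, and the transcriptional coactivator Yap1 by -0.040 ± 0.13. None of the 8 passed (limma adjusted p = 0.676 to 0.990), and the groups overlapped for all but Pdgfd, which was higher in every TKI258 tumor, as were 8.66% of genes.

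**Figure D3:**
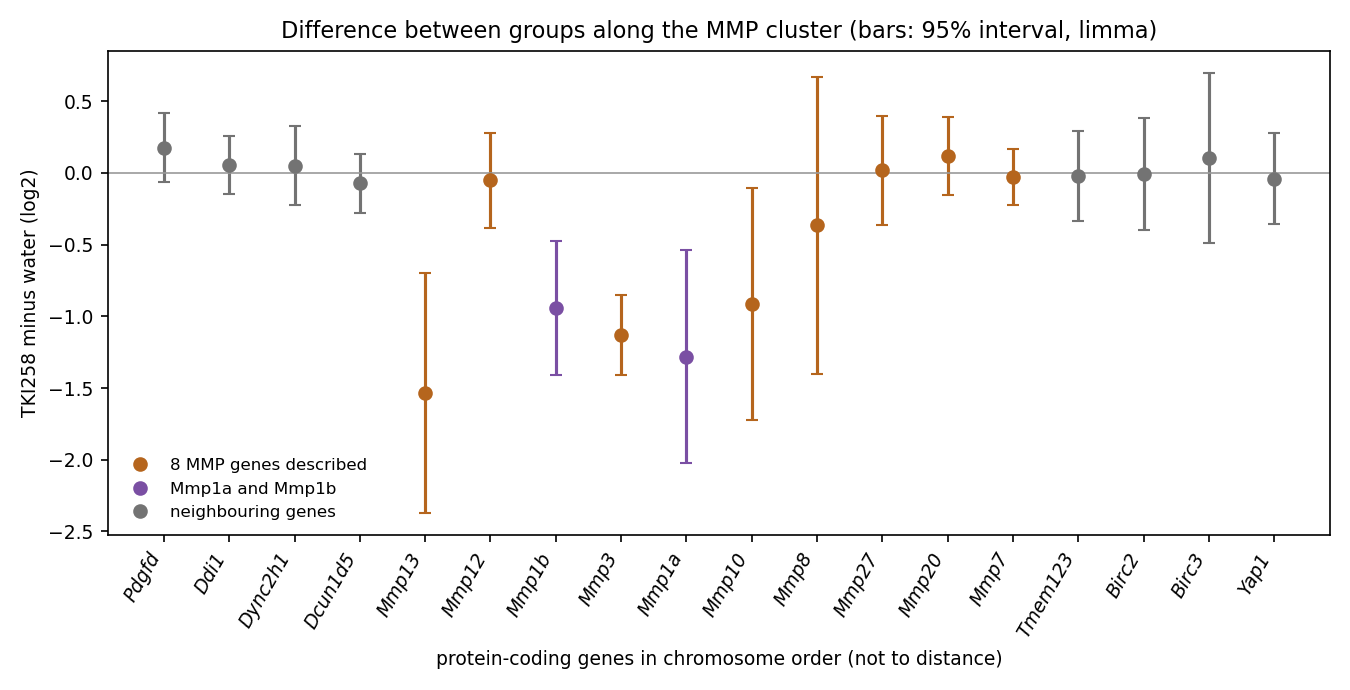
Log2 difference (TKI258 minus water) of the 10 protein-coding MMP genes and 4 neighbours on each side, in chromosome order and not to distance; bars are 95% intervals from limma. Mmp13, Mmp1b, Mmp3, Mmp1a and Mmp10 lie between -1.54 and -0.91, Mmp12 at -0.051, and the neighbours between -0.072 and 0.18.

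Cell type markers also differed between tumors. Differences with a marker list as covariate, or without tumors high in some markers, are given below as alternatives. They do not separate cell type content from treatment, and the cause of the MMP differences was not tested. The epithelial carcinoma list (Krt8, Krt18, Krt19, Epcam, Cdh1, Cldn4, Cldn7 and Esrp1) had means of 8.57 to 8.88 in TKI258 tumors and 8.17 to 8.75 in water tumors, with 6 of 8 genes higher and 2 lower. Krt8, its gene of highest signal, was at 11.55 to 11.77 in TKI258 and 11.74 to 11.88 in water tumors. Without overlap, Krt18 was lower (-0.32), 1 of 8 against 6.49% of genes, and Cldn4 higher (0.91), 1 of 8 against 8.66%. Of the keratinocyte list (12 measured, 12 lower), 2 genes were lower without overlap, against a background of 6.49% of genes. Its means were 5.14 to 5.59 in TKI258 tumors, against 5.34, 7.34 and 7.11 in water replicates 1, 2 and 3. Water replicate 1 was thus like the TKI258 tumors in these markers, and set against it alone the TKI258 tumors differed by -0.99 for Mmp3, -0.83 for Mmp13, -0.52 for Mmp10 and 0.23 for Mmp8. The alternative without water replicates 2 and 3 was added after the data were seen, and its single water tumor is assumed to vary like the others. With the keratinocyte list mean as a covariate in all 6 tumors, the difference was -1.02 ± 0.16 for Mmp3, -0.79 ± 0.26 for Mmp13, -0.56 ± 0.46 for Mmp10 and 0.094 ± 0.58 for Mmp8 (SE, limma adjusted p = 1.00 for Mmp3, Mmp13, Mmp10 and Mmp8). Because only water replicate 1 had list values like those of the TKI258 tumors, that fit also rests largely on this tumor. It is therefore not independent of the comparison with water replicate 1 alone.

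The neutrophil list (12 measured, 9 lower and 3 higher) had means of 7.05, 6.88 and 6.67 in TKI258 replicates 1 to 3, against 7.25, 7.41 and 7.54 in water replicates 1 to 3. Of its genes 3 (Ngp, Retnlg and Ly6g) were lower without overlap, against a background of 6.49% of genes, and 1 (Lcn2) was higher without overlap, against 8.66%. The granule gene Ngp was at 4.98 to 5.31 in TKI258 tumors and 6.29 to 7.23 in water tumors, and Ly6g at 4.27 to 4.37 in TKI258 and 4.82 to 5.54 in water tumors. Lcn2, which encodes lipocalin 2 and is also made by epithelium, was at 11.44 to 12.13 in TKI258 and 11.15 to 11.43 in water tumors. The granule genes Camp, Ltf, Mpo and Elane overlapped between groups, with differences of -0.036, -0.10, 0.082 and 0.074. With the list mean as a covariate, the difference was -0.84 ± 0.24 for Mmp3, -0.81 ± 0.75 for Mmp13, 0.46 ± 0.47 for Mmp10 and 1.67 ± 0.35 for Mmp8 (SE, limma adjusted p = 1.00 for Mmp3, Mmp13, Mmp10 and Mmp8). The list means themselves separated the groups, so list and treatment can hardly be told apart in that fit. The macrophage list (12 measured, 10 lower, 1 of them without overlap) ranged from 9.19 to 9.30 in TKI258 tumors and from 9.24 to 9.82 in water tumors. The fibroblast list (12 measured, 9 higher, 3 of them without overlap) ranged from 9.38 to 9.73 in TKI258 and from 9.15 to 9.44 in water tumors. The backgrounds are again 6.49% of genes lower and 8.66% higher without overlap. B cell markers were high in TKI258 replicate 3 (list mean 9.16) and water replicate 1 (7.11), against 5.06 to 5.42 in the other tumors. T and NK cell markers were highest in the same tumors (7.82 and 6.58, against 5.51 to 6.02). Without those 2 tumors Mmp3 differed by -1.13 and Mmp13 by -1.98.

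The adipocyte list (10 measured, 10 higher, 6 without overlap against a background of 8.66% of genes) had means of 7.39 to 8.89 in TKI258 tumors and 6.32 to 7.34 in water tumors. The endothelial list (8 measured, 7 lower) had means of 7.43 to 7.86 in TKI258 tumors and 7.67 to 8.20 in water tumors. Of its genes 2 (Emcn and Cd93) were lower without overlap, against a background of 6.49% of genes. Bone and cartilage markers, listed because Mmp13 is made there, had means of 6.03 to 6.10 in TKI258 tumors and 6.15 to 6.45 in water tumors. The bone sialoprotein gene Ibsp (difference -1.83) carried that gap, since 4 of the 7 measured were higher and the median difference was 0.047. Of the 7, Ibsp and Alpl were lower without overlap (6.49% of genes) and Col10a1 higher without overlap (8.66% of genes). The part of these lists in the MMP values was not tested.

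**Figure D4:**
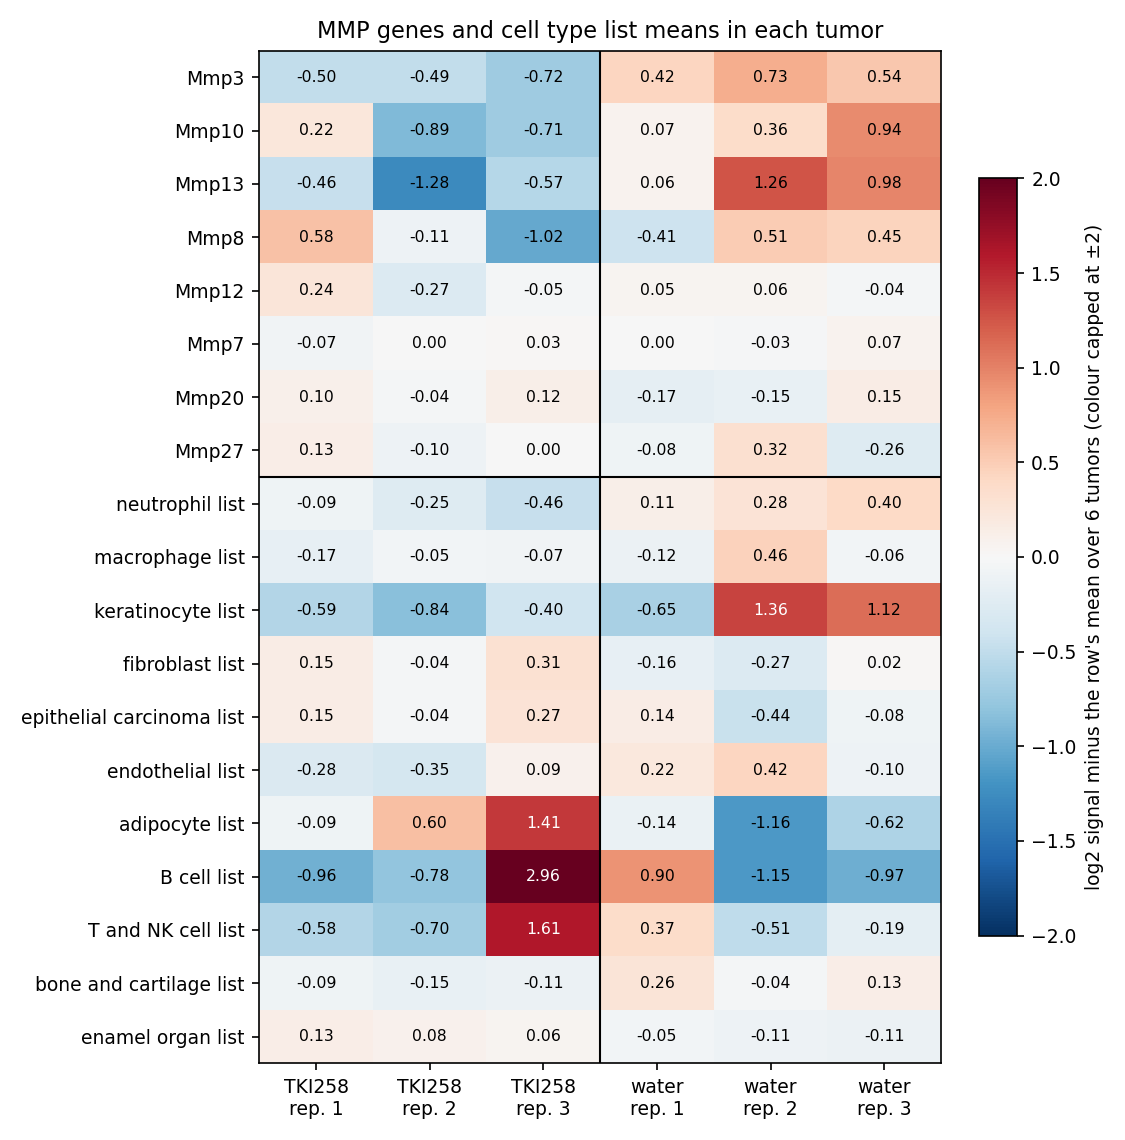
Log2 signal of each MMP gene (upper rows) and mean of each cell type list (lower rows) in the 6 tumors, minus the row's own mean, TKI258 tumors on the left. Mmp3 is low in all TKI258 tumors (-0.72 to -0.49) and high in all water tumors (0.42 to 0.73), whereas the keratinocyte list is high in water replicates 2 and 3 alone (list means 7.34 and 7.11).

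The genes whose profiles over the 6 tumors were nearest to those of the 8 genes were ranked by the root mean square difference of profiles, each centred on its own mean, among all 19937 genes. The rule took the 3 genes of widest spread, Mmp13, Mmp10 and Mmp8. Nearest to Mmp13 were Retnlg, a neutrophil gene (root mean square difference 0.304), Lce1c, a gene of the cornified envelope (0.317), and Depp1 (0.328). Nearest to Mmp10 were the heat shock gene Hspa1a (0.205), Higd1a (0.273) and the WNT ligand gene Wnt5a (0.280). Nearest to Mmp8 were the G-CSF receptor gene Csf3r (0.157), the decoy receptor gene Il1r2 (0.193) and the interleukin-36 ligand gene Il1f9 (0.208). Csf3r signal was 8.17, 7.74 and 7.05 in TKI258 replicates 1 to 3 and 7.62, 8.38 and 8.34 in water replicates 1 to 3, the same order of tumors as Mmp8 but for the ranks among the 3 highest. Retnlg and Csf3r are also members of the neutrophil list. For Mmp3, added outside the rule, they were Clca2 (0.158), Hpgds, which encodes a prostaglandin D synthase (0.168), and Fam110c (0.177). Among the 8 genes, Mmp3 was nearest to Mmp10 (0.428) and Mmp13 (0.455), and Mmp13 nearest to Mmp3.

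Other MMP genes, outside the cluster, were divided in direction: 7 of 12 measured were lower and 5 higher, with a median difference of -0.018. None passed across the array. The gelatinase gene Mmp9 was 9.81, 9.51 and 8.79 in TKI258 replicates 1 to 3, against 10.06, 10.20 and 9.88 in water replicates 1 to 3 (difference -0.68 ± 0.25, limma adjusted p = 0.604). It was 1 of 12 with all TKI258 tumors below the water tumors (6.49% of genes), and Mmp21 was 1 of 12 with all above (8.66%). Differences were -0.13 ± 0.086 for Mmp25, 0.29 ± 0.12 for Mmp21 and 0.20 ± 0.10 for Mmp16. Of 6 inhibitor genes 5 were higher, but their median difference was 0.032, against 0.023 over all genes. The groups overlapped for all 6. The general protease inhibitor gene A2m differed by 0.69 ± 0.25 and the membrane-anchored inhibitor gene Reck by 0.27 ± 0.15, while Timp1, the only lower one, differed by -0.33 ± 0.24.

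In each list of genes of MMP activation and induction more were lower than higher, and no difference was as large as that of Mmp3. Of 10 genes of activating proteases and their receptor, 6 were lower (median difference -0.13), 2 of them without overlap (6.49% of genes). The differences of the 10 ran from -0.94 to 0.16. The urokinase gene Plau, which makes plasmin from plasminogen, was 9.91, 9.88 and 9.51 in TKI258 replicates 1 to 3, against 10.14, 10.39 and 10.05 in water replicates 1 to 3 (difference -0.42 ± 0.15, limma adjusted p = 0.594). The other plasminogen activator gene, Plat, differed by -0.50 ± 0.22, the neutrophil protease gene Ctsg by 0.14 ± 0.094 and the hepsin gene Hpn by 0.16 ± 0.14. All 13 measured AP-1, ETS and CEBPB transcription factor genes were lower, with a median difference of -0.15 and differences from -0.53 to -0.080. All TKI258 tumors lay below the water tumors for 2 of the 13, against 6.49% of genes. Jun was 9.96, 10.09 and 9.66 in TKI258 tumors, against 10.17, 10.29 and 10.63 in water tumors, without overlap (difference -0.46 ± 0.16), and Fos differed by -0.45 ± 0.18 with overlap. Of 11 genes of inducing cytokines and their receptors 7 were lower (median -0.11). Il1b differed by -0.79 ± 0.34 and Il1a by -0.52 ± 0.22, while the receptor genes Osmr and Il17ra differed by 0.37 ± 0.15 and 0.25 ± 0.089. At an unadjusted limma p under 0.05, 2 of the 11 were higher (3.79% of genes) and 0 lower (3.35%). Only Il17ra, 1 of the 11, did not overlap, with all TKI258 tumors above the water tumors (8.66% of genes). None of the activators, transcription factors or inducers passed across the array.

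Of 13 measured genes of matrix and adhesion proteins that MMPs cut, 11 were higher in TKI258 tumors (median difference 0.24) and 2 lower. Of all genes, 43.4% were lower. Without overlap, 2 of the 13 were higher (8.66% of genes) and 1 was lower (6.49%). None passed across the array. The proteoglycan gene Dcn was 11.23, 10.58 and 11.39 in TKI258 replicates 1 to 3, against 10.09, 10.22 and 10.51 in water replicates 1 to 3 (difference 0.79 ± 0.23, limma adjusted p = 0.572). The fibrillar collagen gene Col3a1 differed by 0.51 ± 0.20, and the lower ones were the basement membrane gene Nid2 (-0.92 ± 0.23) and Tnc (-0.10 ± 0.30). Dcn, Col3a1, Col1a1 and Col1a2 also belong to the fibroblast list, whose means are given above.

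The size of the difference depended little on any single tumor for Mmp3 and more for Mmp13, Mmp10 and Mmp8. With each tumor left out in turn, the difference lay between -1.20 and -1.05 for Mmp3, between -1.89 and -1.28 for Mmp13 and between -0.75 and 0.054 for Mmp8. The ends of the Mmp13 range came without water replicate 1 and without TKI258 replicate 2. The unadjusted limma p of Mmp10 was under 0.05 with all 6 tumors, and was no longer so without TKI258 replicate 2, TKI258 replicate 3, water replicate 2 or water replicate 3.

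**Figure D5:**
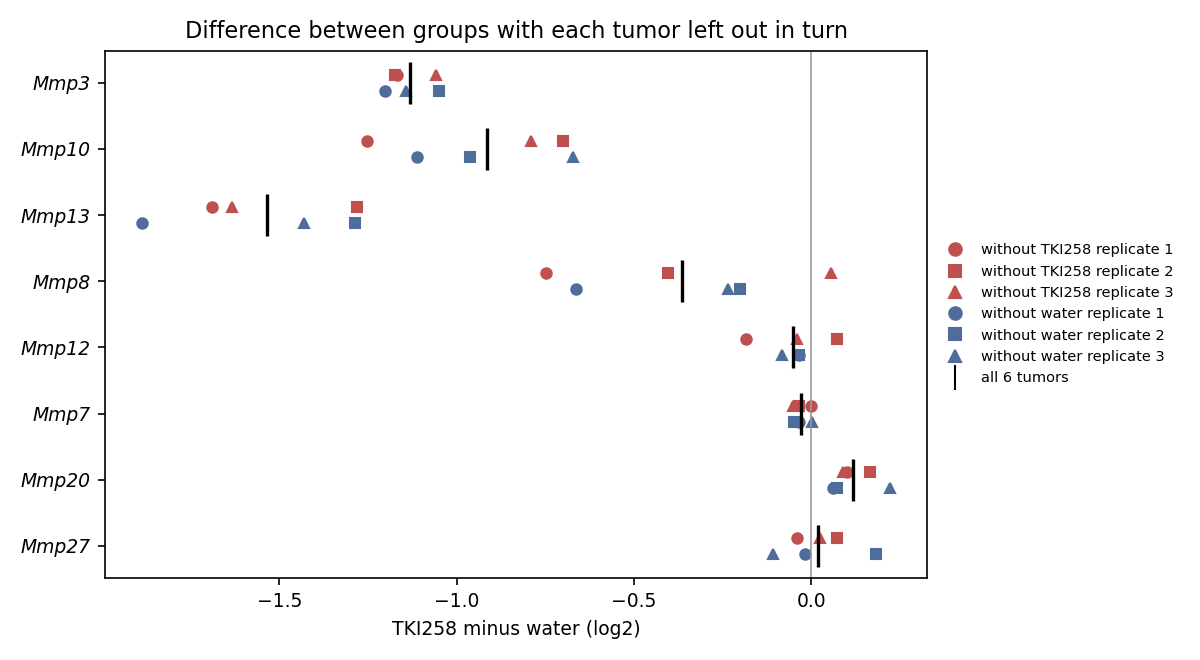
Log2 difference (TKI258 minus water) of each MMP gene with all 6 tumors (black bars) and with each tumor left out in turn (points, TKI258 tumors red and water tumors blue). Mmp3 stays between -1.20 and -1.05, while Mmp8 runs from -0.75 to 0.054.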

How the data were processed

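The authors deposited 1 log2 RMA value for each probe set and array. The submitters' processing notes name RMA, affy and limma without versions, and the build is not given in the sources used here. All 6 columns and 34760 probe sets were used. The platform annotation names 1 gene for 21640 probe sets, several for 1321 and none for 11799, and 21553 were matched to the mouse gene table by Entrez number, with 0 symbols changed. Correlations between arrays were 0.981 to 0.993 within the TKI258 group and 0.988 to 0.992 within the water group.

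TKI258 was compared with water with limma 3.58.1 (R 4.3.3): lmFit and eBayes over all probe sets, group as the only term, two-sided, Benjamini-Hochberg adjustment over all probe sets, threshold 0.05, no filter. An adjusted p in the text comes from that fit. The number of arrays limits the precision. An exact permutation test of 3 tumors against 3 cannot go below p = 0.1 and was not used. Titles call the tumors biological replicates.

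The members and the gene lists were chosen with earlier results of these data known, so no p was adjusted over a list. Named genes were the 8 members, Mmp1a and Mmp1b, 4 neighbours on each side, up to 2 genes per direction with the smallest p in each pathway list, and 3 nearest profiles for each of the 3 members of widest spread. List genes without a probe set of their own, among them Mmp15, Runx2, Il1r1, Pthlh, Spp1, Bglap and Bglap2, were not analysed here. Alternatives were 2 filters, quantile normalization, median centring, a replicate block, tumors left out, another variance prior, array weights, 2 marker covariates, the mean over probe sets and other thresholds.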

Additional observations from a re-analysis of the deposited data

How the results depend on the processing

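No member passed an adjusted p of 0.05 under any alternative run, and with 6 arrays the smallest adjusted p of Mmp3 was 0.109 (trend and robust prior; range 0.109 to 1.00). Mmp3, Mmp13 and Mmp20 kept their direction under every alternative run, with Mmp3 between -1.20 and -0.84 and Mmp13 between -1.98 and -0.79 (keratinocyte covariate). At an adjusted p of 0.25, 1 member and 5 probe sets were called. Probe sets called at 0.05 were 2 with the low-variance filter, 1 without the pair of tumors high in B cell markers, and 0 to 3 with single tumors left out (3 without water replicate 1), against 0 with all tumors. With the replicate block 0 members and 0 probe sets were called, and Mmp3 had an adjusted p of 0.557. Deviations of same-numbered tumors correlated at -0.23, 0.19 and 0.0090, and 2 of 6 tumors correlated best with their own number, so the numbers were not taken as pairs. The difference of Mmp10 turned with the neutrophil covariate (0.46). That of Mmp8 turned without TKI258 replicate 3 (0.054), with array weights (0.035), with the keratinocyte (0.094) or neutrophil (1.67) covariate and without water replicates 2 and 3 (0.23). Mmp12 turned without TKI258 replicate 2 (0.073), with array weights (0.013) and with the neutrophil covariate (0.12). Mmp7 turned without TKI258 replicate 1 (0.00018) or water replicate 3 (0.00066). Mmp27 turned with quantile normalization (-0.024), without the pair of tumors high in B cell markers (-0.012), and without TKI258 replicate 1 (-0.040), water replicate 1 (-0.017) or water replicate 3 (-0.11). With single tumors left out, the range was -0.75 to 0.054 for Mmp8, -0.18 to 0.073 for Mmp12, -0.050 to 0.00066 for Mmp7 and -0.11 to 0.18 for Mmp27. The causes were not tested. The low-signal filter removed Mmp7, Mmp8, Mmp20 and Mmp27, and the low-variance filter removed Mmp7 and Mmp20, so these have no value there. The mean over probe sets equals the main value, since each member has 1.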
